A study of Mus musculus with 2 samples.

Results

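The genes of the core-binding factor, Runx1, Runx2, Runx3 and Cbfb, were followed in maps of histone H3 acetylated at lysine 27 (H3K27ac), a chromatin mark of active promoters and enhancers. The 4 genes, of 21887 protein-coding genes in the reference table, were taken by name, and every deposited peak that overlapped a gene or the 100 kb on either side of it (mm10) was kept. This gave 70 of 34272 peaks in Gata2 f/f cells and 71 of 37234 peaks in Gata2 KO cells. The 2 libraries, 1 a genotype, are of mouse leukaemia cells with the MLL-AF9 fusion (MA9 cells), taken from bone marrow. Cells of both genotypes were cultured with IL-3, IL-6 (10 ng/mL) and SCF (20 ng/mL), and ChIP followed 7 to 9 days in culture after transduction with Cre or the control vector MIT and sorting for GFP and tdTomato. The f/f cells carry floxed Gata2 and the KO cells are Gata2 -/-. The labels give neither the number or pooling of animals nor which vector each library received. With 1 library a genotype there is no replicate check, no difference below has a test, and read depth is unknown.

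RUNX proteins bind DNA through the Runt domain, and CBFB, which does not bind DNA itself, joins them and strengthens that binding. RUNX1 is required for the formation of blood stem cells, RUNX2 for bone, and RUNX3 acts in lymphocytes and other blood cells. RUNX1 and CBFB are frequent partners of fusion proteins in acute myeloid leukaemia. Each Runx gene is known to be read from a distal promoter, P1, and a proximal promoter, P2, which give proteins with different N-termini.

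Of the marker genes with a start in the reference table, peaks within 1000 bp of a start marked 6 of 6 blood and myeloid genes in f/f and 5 in KO, and 3 and 1 of 3 genes of the MLL-AF9 programme. Among markers of mast cells, T cells, B cells and stromal or endothelial cells, 0 of 10 had such a peak in either list. Of 2 erythroid genes, Klf1 had one in both lists and Epor in neither. Of 2 liver genes, Apoa2 had one in both lists and Alb in neither. Xist had a start peak in f/f alone, the Y-linked Uty, Kdm5d and Eif2s3y in KO alone, and the Y-linked Ddx3y in neither list. A difference in the sex of the source cells thus cannot be told apart from genotype in any comparison below. Gata2 and its 100 kb flanks held 24.9 kb under peaks in f/f and 15.1 kb in KO, which does not check the deletion. None of the 4 genes studied lies on a sex chromosome, which does not separate sex from genotype at them.

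The reference table lists 6 starts for the 4 genes: P1 and P2 of Runx1, P1 and P2 of Runx3, 1 start of Runx2, called P1 here, and 1 of Cbfb. The P2 start of Runx2 is not in it. The P1 sequences are shown for what they share. The longest run of bases common to the 3 windows is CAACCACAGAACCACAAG, 18 bases, with a pair of the RUNX motif (ACCACA, the reverse complement of TGTGGT, in capitals), read 5′ to 3′ in the direction of transcription (RefSeq, GRCm38.p6, the same build as mm10).
Runx1 P1, chr16:92826026-92826053, minus strand: ataaacaACCACAgaACCACAagttggg
Runx2 P1, chr17:44814584-44814611, minus strand: acaaacaACCACAgaACCACAagtgcgg
Runx3 P1, chr4:135120504-135120531, plus strand: tccctcaACCACAgaACCACAaggccag

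The run begins at base 27 of the Runx1 transcript and base 22 of the Runx2 transcript, counting the start as base 1, and 136 bases before the start of Runx3. Of 32851 promoter windows in the table, each from 250 bases before a start to 50 after it, 4 (0.0122%) hold this run. They are the 3 P1 windows, which hold it by the way the run was chosen, and that of Gm16225. Gm16225 is a non-coding gene next to Runx3, with its start near the peaks at Runx3 P1. Whether its window and that of Runx3 P1 share bases was not tested. The spaced pair ACCACANNACCACA, which the run contains, is in 7 windows (0.0213%), these 4 among them. The rarity of either pattern is thus a description only. Both patterns were searched after the sequences had been read. The motif TGTGGT, on either strand, is in 16.8% of windows, and 1.81% hold it more than once. It occurs 2 times in the P1 windows of Runx1 and Runx3, 3 times in that of Runx2, and not in the P2 windows or that of Cbfb. None of the 6 windows holds AGATAA or TGATAA, letters of the GATA motif that 18.6% of windows hold, or the ETS letters CCGGAAG (8.86%). A match of letters is a description and not a binding site.

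The P1 and P2 sequences differ in base composition, which the next 4 sequences show. These are the 250 bases before each start, with each CG in capitals.
Runx1 P1, chr16:92826075-92826324, minus strand: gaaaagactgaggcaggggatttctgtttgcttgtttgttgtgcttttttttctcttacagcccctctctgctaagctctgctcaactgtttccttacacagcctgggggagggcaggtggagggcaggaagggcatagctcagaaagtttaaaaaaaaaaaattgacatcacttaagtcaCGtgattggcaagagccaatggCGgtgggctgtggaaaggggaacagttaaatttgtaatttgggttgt
Runx1 P2, chr16:92697330-92697579, minus strand: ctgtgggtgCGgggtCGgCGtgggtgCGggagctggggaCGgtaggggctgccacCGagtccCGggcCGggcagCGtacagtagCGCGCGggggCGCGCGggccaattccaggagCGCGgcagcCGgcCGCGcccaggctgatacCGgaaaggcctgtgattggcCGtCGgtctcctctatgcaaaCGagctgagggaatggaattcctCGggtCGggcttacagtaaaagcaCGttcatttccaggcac
Runx3 P2, chr4:135152295-135152544, plus strand: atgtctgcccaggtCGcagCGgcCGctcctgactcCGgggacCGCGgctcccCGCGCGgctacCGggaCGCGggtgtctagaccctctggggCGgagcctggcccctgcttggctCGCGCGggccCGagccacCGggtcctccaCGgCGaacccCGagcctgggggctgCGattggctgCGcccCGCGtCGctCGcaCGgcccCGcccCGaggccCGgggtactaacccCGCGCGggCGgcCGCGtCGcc
Cbfb, chr8:105170424-105170673, plus strand: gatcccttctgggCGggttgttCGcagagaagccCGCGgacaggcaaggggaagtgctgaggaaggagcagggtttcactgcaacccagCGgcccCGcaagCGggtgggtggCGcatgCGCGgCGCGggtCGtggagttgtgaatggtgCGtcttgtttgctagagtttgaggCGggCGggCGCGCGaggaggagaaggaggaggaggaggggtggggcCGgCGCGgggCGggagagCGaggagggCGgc

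The 300-base window of Runx1 P1 has a GC content of 45.0% and 2 CG dinucleotides, and that of Runx2 P1 has 45.3% and 2. Runx3 P1 lies between, with 63.7% and 8. The P2 windows of Runx1 (69.0%, 35 CG) and Runx3 (77.3%, 45 CG) and the Cbfb window (69.7%, 30 CG) are the GC-rich ones. Over all protein-coding starts, 16.4% of 6242 windows under 50% GC had a peak within 1000 bp in both lists, against 72.8% of 5189 windows of 65% GC or more. Windows from 50% to under 65% GC, the class of Runx3 P1, lay between, with 55.3% of 9832.

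All 6 starts had a peak within 1000 bp in both libraries, against 48.2% of 21263 protein-coding starts in the table. Peaks in f/f alone marked 2.45% of these starts and peaks in KO alone 1.98%. The promoters fell into strongly and weakly marked ones in both lists. Strength is the authors' -log10 p of a peak, which places a peak within its own list and is not compared between lists (medians 12.2 in f/f and 9.41 in KO).

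The strongest of the 6 was the Cbfb promoter, with a -log10 p of 211 in f/f and 121 in KO, above 99.6% and 99.7% of all peaks of its list. Runx1 P2 (95.4 and 49.1) and Runx3 P2 (86.2 and 50.9) lay above 89.4% to 91.6% of peaks. Runx1 P1 was nearer the middle of its lists, with 19.4 in f/f and 15.9 in KO. Runx2 P1 (3.53 and 3.67) and Runx3 P1 (7.48 and 3.29) were below the median of both lists. The Runx2 P1 peaks lay above only 4.48% of f/f and 10.1% of KO peaks. Those at Runx3 P1 lay above 33.9% and 4.97%, so that the KO peak there is also among the weakest calls. All GC-rich P2 and Cbfb windows thus had stronger peaks than the P1 windows, over 6 starts that include 2 pairs from the same gene. Among the P1 windows the order did not follow GC content. Runx3 P1, at 63.7% GC, had weaker peaks in both lists than Runx1 P1, at 45.0%.

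**Figure D1:**
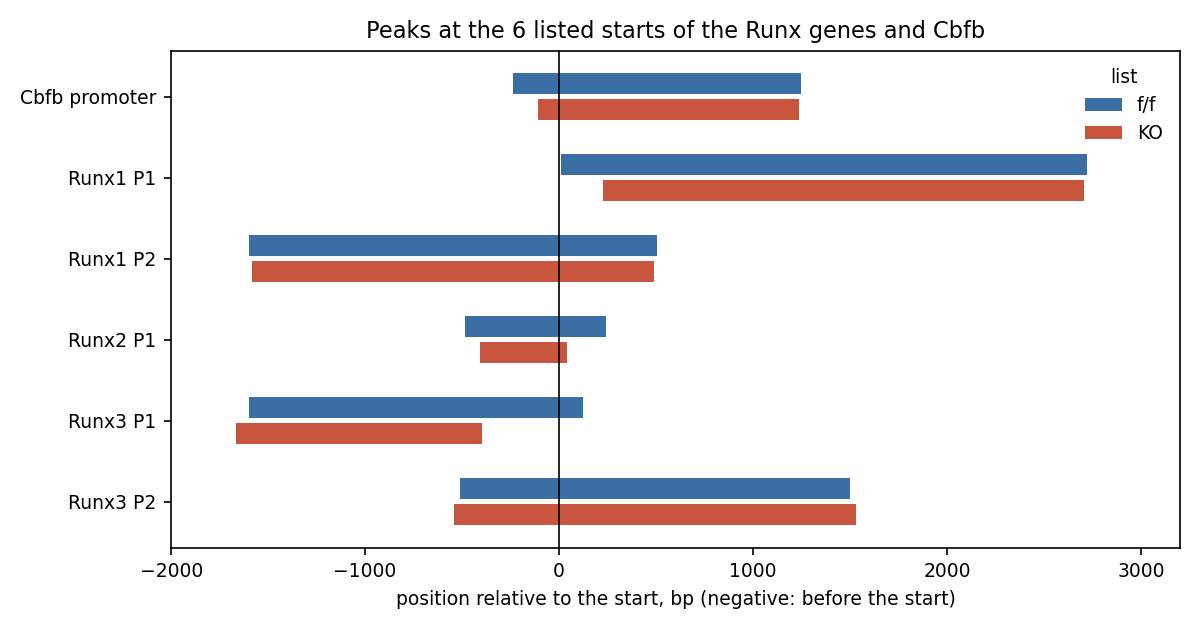
Extent of the peak at each of the 6 listed starts, in bp from the start (x axis; negative values lie before the start), in f/f (blue) and KO (red), 1 library each. Runx1 P1 is marked after its start only, and the KO peak at Runx3 P1 ends 395 bp before the start.

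The position of the peak relative to the start differed between promoters. At Cbfb the peak ran from 237 bp before the start to 1246 bp past it in f/f and from 111 to 1235 bp in KO. At Runx1 P1 it lay wholly on the transcribed side, beginning 11 bp past the start in f/f and 227 bp past it in KO, and ending at 2721 and 2705 bp. The RUNX pair of Runx1 P1 is thus inside the f/f peak and outside the KO peak, by the edges of the calls. The same holds for the pair of Runx3 P1, whereas that of Runx2 P1 is inside the peaks of both lists. At Runx1 P2 the peak lay mostly before the start, from 1601 bp before to 503 bp past it in f/f and from 1582 to 490 bp in KO. At Runx3 P2 it reached from 511 bp before to 1502 bp past the start in f/f, and from 542 to 1532 bp in KO.

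The weakest P1 peaks differed most in extent between the libraries. At Runx3 P1 the f/f peak reached 121 bp past the start, while the KO peak ended 395 bp before it, over Gm16225 alone. At Runx2 P1 the peak was 728 bp wide in f/f and 449 bp in KO, a KO to f/f ratio of 0.617, the only one of the 6 past 1.5-fold. Over 10242 starts with a peak in both lists, 4.34% were narrower in KO by this measure and 4.39% wider. The other ratios were 0.740 (Runx3 P1), 0.914 (Runx1 P1), 0.985 (Runx1 P2), 1.03 (Runx3 P2) and 0.908 (Cbfb), beside a median of 0.994 over all these starts with quartiles of 0.927 and 1.06.

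**Figure D2:**
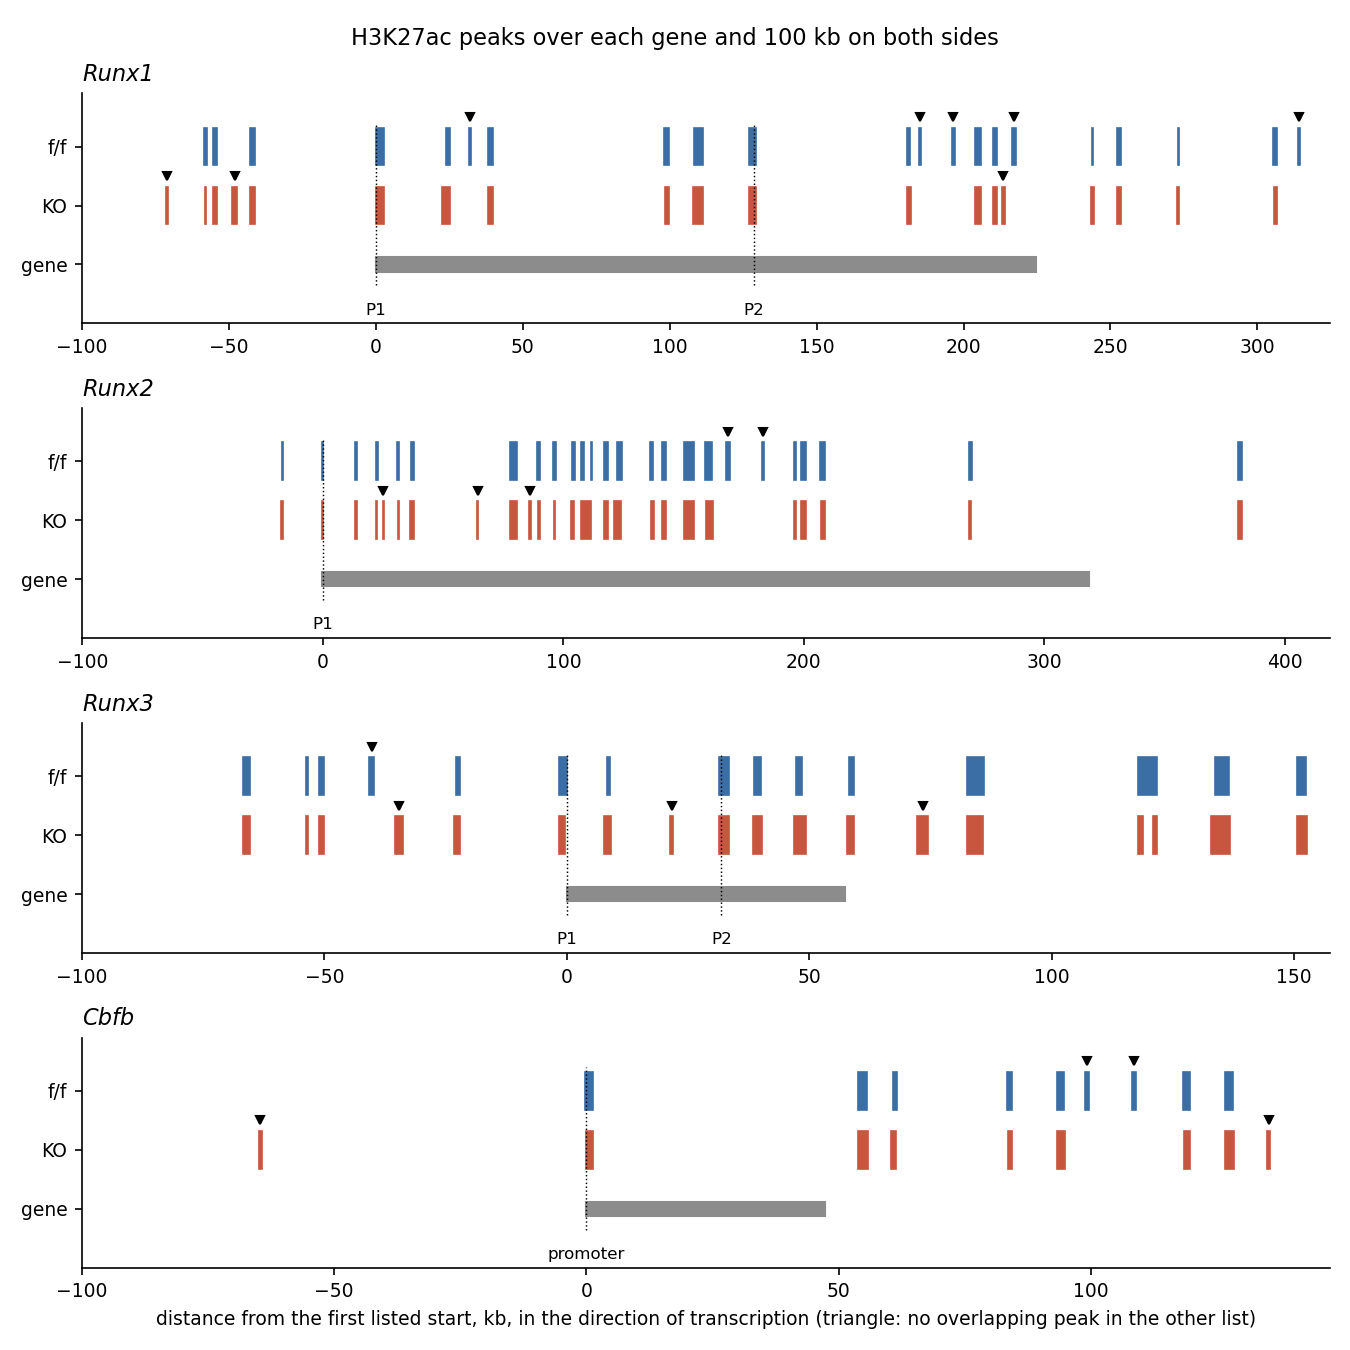
Peaks of the f/f (blue) and KO (red) lists over each gene (grey bar) and 100 kb on both sides, by distance in kb from the first listed start along the direction of transcription; dotted lines mark the listed starts and triangles the peaks with no overlapping peak in the other list. Runx2 has a row of peaks within the gene, whereas Cbfb has none within the gene past its promoter.

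Runx1 (chr16:92601466-92826074, minus strand, 225 kb) encodes the main RUNX factor of blood progenitors. Peaks of the 2 lists that overlap by at least 1 bp were joined into elements, and the Runx1 window held 24 of them: 16 in both lists, 5 found in f/f only and 3 in KO only. Over the whole lists, 16.2% of f/f peaks and 22.6% of KO peaks had no overlapping peak in the other. Peaks covered 28.3 kb of the window in f/f, in 21 peaks, and 29.0 kb in KO, in 19 peaks. Besides P1 and P2, the gene held 12 elements, 7 of them in both lists. The reference table holds no exons, so that these are called elements inside the gene rather than intronic ones. Between P1 and P2, the known haematopoietic enhancer of the gene lies in the first intron, on the P1 side.

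The element next to P1 lay at this side, 23.9 to 25.4 kb past the P1 start in f/f (-log10 p 58.6) and 22.5 to 25.3 kb past it in KO (25.3). Whether it coincides with the known enhancer was not tested, since no exon or enhancer coordinates were used. It was 1573 bp wide in f/f and 2782 bp in KO, a ratio of 1.77, and the added bases lay on the side of P1. A broad element before P2, 108 kb past P1, had 3137 bp (f/f) and 3350 bp (KO). Toward the 3′ end, an element 204 kb past P1 was 2114 bp wide in f/f (-log10 p 61.7) and 1903 bp in KO (38.4).

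The 4 elements inside the gene in f/f alone were 651 to 1293 bp wide, with 3 of them 185 to 216 kb past P1 in the 3′ part of the gene, and had a -log10 p of 3.14 to 5.76. The KO-alone element in that stretch (1045 bp, 4.77) lay 213 kb past P1. No peak of either list lay in a stretch of 58.3 kb between P1 and P2 or in 51.6 kb past P2. Upstream of P1, 3 elements at 41.0, 54.1 and 57.4 kb were in both lists, the last being 944 bp wide in f/f and 581 bp in KO (0.615). KO alone had peaks of 1983 and 645 bp at 47.1 and 70.8 kb. Their -log10 p, 3.63 and 3.03, lay above only 9.56% and 1.60% of KO peaks. Of the 3 shared elements, 2 were narrower in KO and 1 wider. With the KO-alone peaks, which held 2.63 kb, the bases covered upstream were 3.89 kb (f/f) and 6.07 kb (KO). Inside the gene the order was the opposite, with 15.9 kb (f/f) and 14.5 kb (KO) outside the promoters.

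Runx2 (chr17:44495987-44814797, minus strand, 319 kb), known for its role in bone, had the most covered bases of the 4 in the full lists, with 37.7 kb under 25 peaks in f/f and 37.5 kb under 25 peaks in KO. Of its 27 elements 22 were in both lists, 2 in f/f only and 3 in KO only. Inside the gene, 23 lay away from its listed start and those of neighbours. Of the covered bases, 33.0 kb (f/f) and 32.9 kb (KO) were at these elements. A peak at the unlisted P2 of Runx2 would be counted among them, and whether any lies there was not tested. With peaks of at least 3-fold enrichment, 1.18% of the Runx2 window was covered in f/f and 1.21% in KO, the lowest share of the 4. The strongest peak in the gene (-log10 p 128 in f/f and 65.3 in KO) lies at the start of Supt3, a transcription cofactor gene that overlaps Runx2, and was 1466 and 1573 bp wide. This peak is counted as a neighbour's promoter.

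The strongest other element of Runx2 lay 77.8 kb past P1, with a -log10 p of 74.7 in f/f and 52.0 in KO. Its edges were nearly the same in the 2 lists, with widths of 2837 and 2815 bp. From there to 207 kb past P1 the gene carried a row of elements, the broadest being 4376 bp (f/f) and 4362 bp (KO), with a -log10 p of 10.9 and 9.35. Of the 18 elements inside the gene in both lists, 14 were narrower in KO and 4 wider. Their median ratio was 0.951, beside 0.991 over all elements in both lists, with quartiles of 0.865 and 1.13. The largest ratio, 2.32, was at an element where f/f had 2 peaks of 517 and 1229 bp and KO had 1 peak of 4048 bp across both. The narrowest in KO relative to f/f was 21.9 kb past P1 (899 bp and 494 bp, 0.549). The 3′ part of the gene was sparse, with 1 element, 269 kb past P1, between stretches of 60.1 and 48.9 kb with none.

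Runx3 (chr4:135120645-135177990, plus strand, 57.3 kb) had the largest difference between the libraries among the 4 genes in the full lists. Peaks covered 25.1 kb of its window in f/f (15 peaks, 9.77%) and 30.0 kb in KO (18 peaks, 11.6%), a ratio of 1.19. Within the gene itself the covered bases were 5.67 kb (f/f) and 8.26 kb (KO), a ratio of 1.46. It was 1.66 among the strongest 20000 peaks of each list, past 1.5-fold, and 1.23 when the fold enrichment had to reach 3. Leaving out the promoters, the bases inside the gene were 3.53 and 6.19 kb, a ratio of 1.75. No share over all genes is given for ratios within the gene, so that how unusual these are was not tested. With peaks limited to a -log10 q of 5 or more, the window's difference turned to -0.55 points of covered share, smaller in size than those of Cbfb (-0.621) and Runx2 (0.597). With peaks of at least 3-fold enrichment it was 0.0462 points, also smaller in size than those of Cbfb (-0.896) and Runx1 (-0.683). The ratio within the gene was 1.43 under the -log10 q limit.

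All 3 elements inside Runx3 in both lists were wider in KO, beside a median ratio of 0.991 over all 28627 elements in both lists. Between P1 and P2, the element 7.76 kb past P1 was 699 bp wide in f/f and 1420 bp in KO (2.03). Past P2, the element at 46.8 kb was 1313 and 2437 bp (1.86) and that at 38.5 kb was 1522 and 1806 bp (1.19). Another, 522 bp wide, was in KO alone, 21.3 kb past P1. Their -log10 p, 4.76 to 11.9 in f/f and 4.30 to 9.40 in KO, lay below the median of each list.

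The strongest elements upstream of Runx3 had close widths in the 2 libraries. Those 65.4 kb (1304 bp (f/f) and 1358 bp (KO)) and 50.04 kb before P1 (1053 and 1044 bp) had a -log10 p of 69.3 and 70.8 in f/f and 45.9 and 58.4 in KO. Just past the gene's 3′ end, the element 57.9 kb from P1 was 1090 bp wide in f/f and 1429 bp in KO. The broad element at 82.5 kb had 3462 and 3315 bp. Inside Clic4, a chloride channel family gene downstream, 1 f/f peak of 3907 bp stood where KO had 2 peaks of 1074 and 783 bp (0.475). KO alone had peaks of 1547 bp upstream and 2221 bp downstream of Runx3, each with a -log10 p of 4.62. The f/f list alone had 1 of 923 bp upstream (6.77). All of these were below the median of their list. Over the whole Runx3 window, KO-alone peaks held 4.29 kb and f/f-alone peaks 0.923 kb.

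Cbfb (chr8:105170674-105217989, plus strand, 47.3 kb), which encodes the shared partner of the RUNX proteins, was marked at its promoter and at no other place in the gene. The promoter peak was 1484 bp wide in f/f and 1347 bp in KO, and no peak of either list lay in the 46.1 kb from there to the gene's end. Peaks covered 10.8 kb of the Cbfb window in each library, 9 peaks each. Of the 11 elements 9 lay downstream, at or in D230025D16Rik, B3gnt9, Tradd, Fbxl8, Hsf4, Nol3, Exoc3l, E2f4 and Elmo3. Of these, 2 were in f/f alone (831 bp in Hsf4 and 781 bp in Nol3, -log10 p 11.4 and 11.97, just under the f/f median) and 1 in KO alone (594 bp in Elmo3, 4.91). The upstream flank held 1 weak KO peak of 606 bp (3.97).

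**Figure D3:**
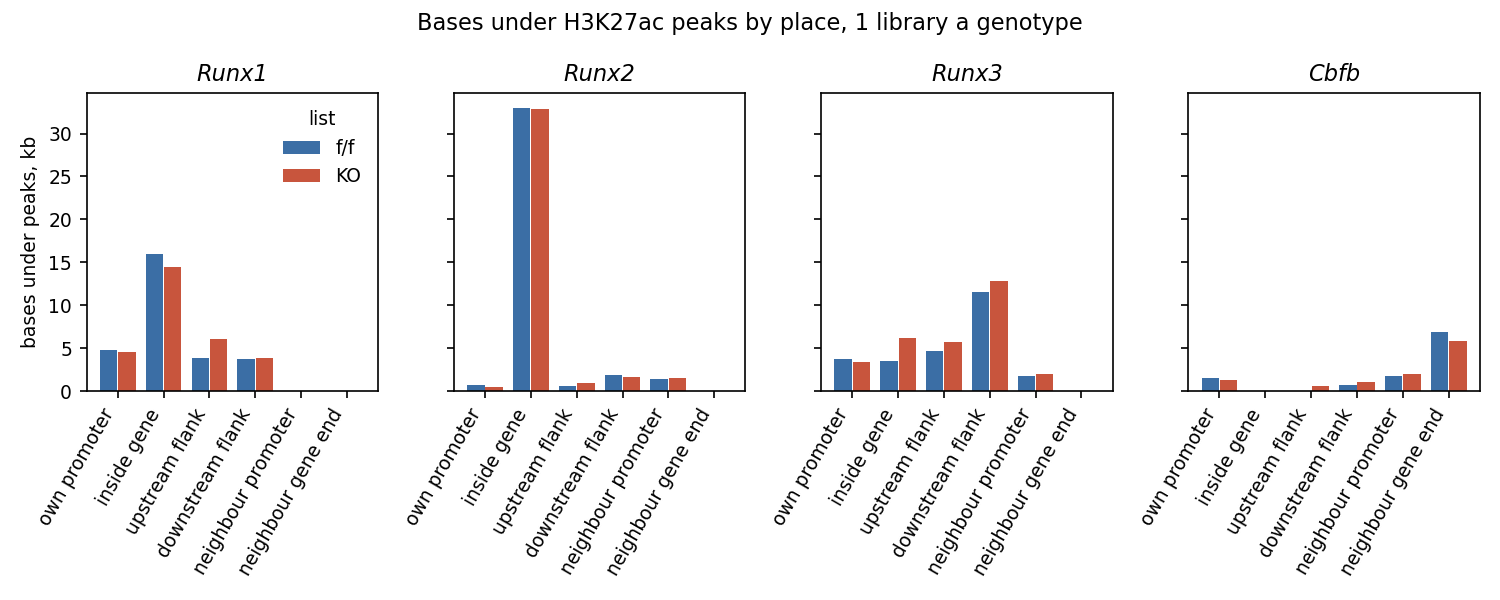
Bases under peaks in kb (y axis) by place for each gene in f/f (blue) and KO (red), 1 library each and no error bars. The bars inside Runx2 are near 33 kb in both lists, those inside Runx3 are 3.53 kb (f/f) and 6.19 kb (KO), and Cbfb has none inside the gene.

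Set side by side, the windows ranked in covered share as Runx3 (9.77% in f/f and 11.6% in KO), Runx2 (7.26% and 7.23%), Runx1 (6.68% and 6.83%) and Cbfb (4.36% and 4.37%), in the same order in both full lists. The order depended on the peaks and flanks used. At 3-fold enrichment or more, the f/f shares were 5.79% for Runx3, 4.36% for Cbfb, 4.01% for Runx1 and 1.18% for Runx2. Among the strongest 20000 peaks Runx1 (4.91% and 4.97%) was above Runx2 (4.58% and 3.85%). With 25 kb flanks Runx2 (9.72%) was above Runx3 (8.65%) in f/f. In the full lists with 100 kb flanks, the KO minus f/f differences were 1.88 (Runx3), -0.0326 (Runx2), 0.153 (Runx1) and 0.00404 (Cbfb) percentage points. With a -log10 q of 5 or more, all 4 took the opposite sign, -0.550, 0.597, -0.154 and -0.621 points in the same order. All 4 were above the median protein-coding gene, which had 3.14% in f/f and 3.33% in KO. None of the 4 ratios of covered bases (1.19, 0.996, 1.02 and 1.00) passed 1.5-fold, against 10.2% of 18321 genes with any peak that were at least 1.5-fold higher in KO and 7.52% that were lower. The median ratio over genes was 1.04, with quartiles of 0.894 and 1.20, which hold all 4. The order of neighbours has no error estimate.

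The 2 lists did not mark the same bases throughout. Of the bases under a peak in either list, 63.9% were under both around Runx1, 66.9% around Runx2, 63.1% around Runx3 and 67.6% around Cbfb. The median over genes was 63.5%, with quartiles of 52.9% and 73.0%. Around Runx1 the bases in common came to 22.3 kb, of the 28.3 kb and 29.0 kb in the 2 lists.

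The share of peaks found in 1 list alone lay below that of the whole list in both libraries, by less than the counting error. Among f/f peaks 10 of 70 lacked a KO partner, or 14.3% (95% interval by Wilson's method, 7.95% to 24.3%), where the whole list had 16.2%. Among KO peaks 11 of 71 lacked an f/f partner, or 15.5% (8.88% to 25.7%), where the whole list had 22.6%. The intervals cover counting error only. All 21 were weaker than their list's median, with a -log10 p of 3.03 to 11.97 in f/f and 3.03 to 7.10 in KO. The 33 f/f and 34 KO peaks at or above the median were all shared, where 2.52% and 4.23% of such peaks were alone over the whole lists, so that these counts are near the background. Below the median, 27.03% of the f/f and 29.7% of the KO peaks here were alone, beside 29.9% and 40.9% over the whole lists.

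**Figure D4:**
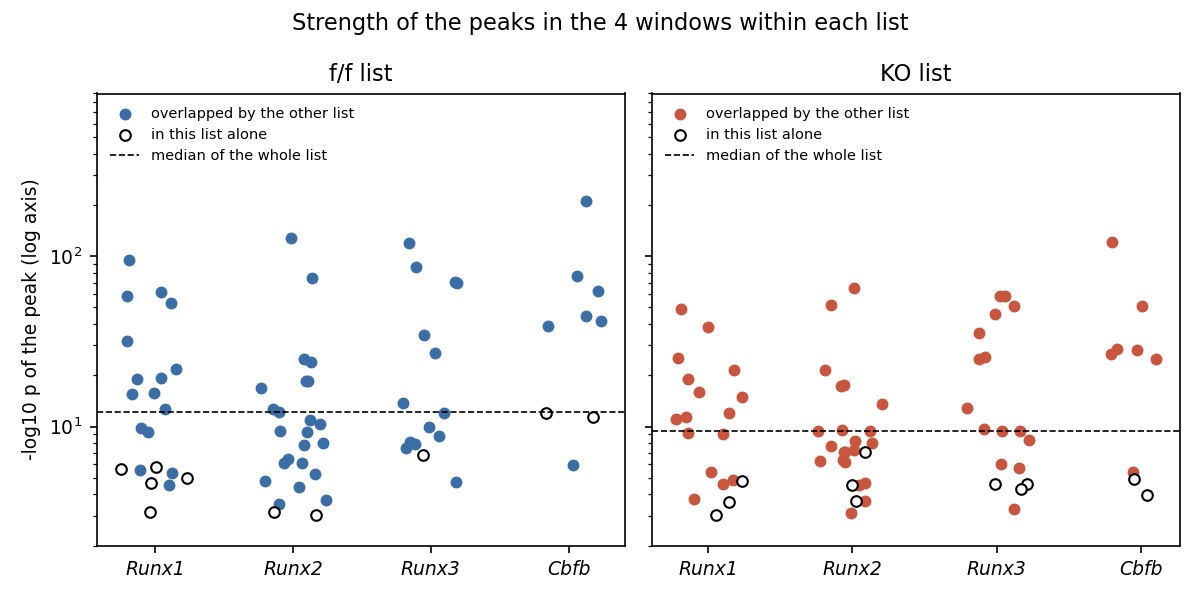
The -log10 p of each peak (log axis) in the 4 windows, in the f/f list (left) and the KO list (right); filled points are overlapped by a peak of the other list, open points are not, and the dashed line is the median of the whole list. All 21 open points lie below the line of their list.

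Of the 59 elements in both lists, 28 were wider in KO and 31 narrower, with a median ratio of 0.992 beside 0.991 over all 28627 such elements. At least 1.5-fold more bases in KO were found at 6 of the 59, and at least 1.5-fold fewer at 5, against 10.4% of all elements in each direction. Those with more were 2 each around Runx1 and Runx3 and 1 each around Runx2 and Cbfb. Those with fewer were 3 around Runx2 and 1 each around Runx1 and Runx3. The elements split into different numbers of peaks by the 2 lists, in Runx2 and Clic4, gave the largest and the smallest of these ratios.

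**Figure D5:**
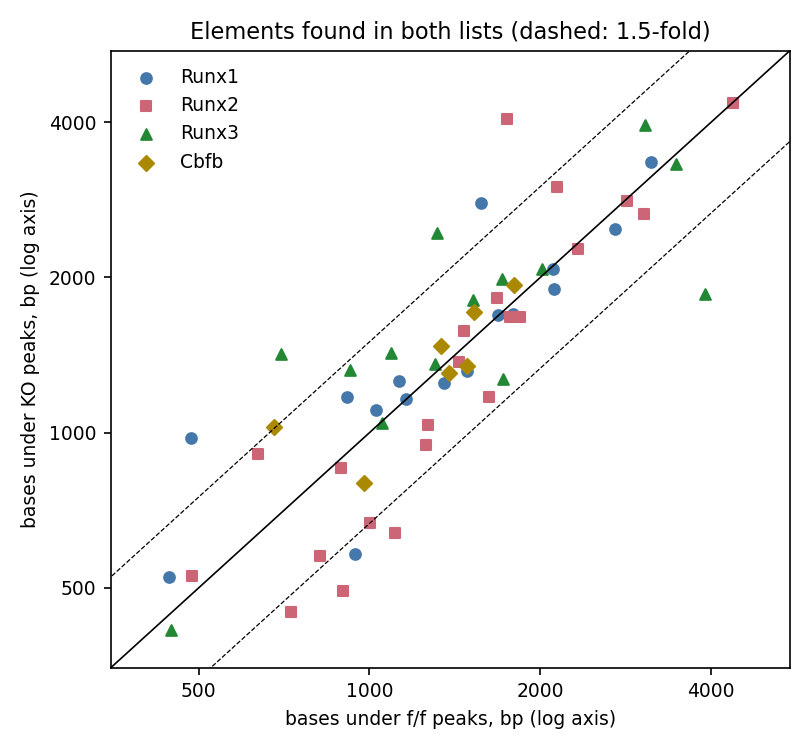
Bases under KO peaks against bases under f/f peaks (both log axes, bp) for the 59 elements in both lists, by gene; the line marks equality and dashed lines 1.5-fold. Most points lie between the dashed lines, 6 lie above and 5 below.

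Genes that work with RUNX proteins were compared in the same way, each with its 100 kb flanks. Of 24 genes of RUNX partners and regulators, 15 had more covered bases in KO and 8 fewer, with a median ratio of 1.03 beside 1.04 over all genes. Past 1.5-fold were 0 upward and 2 downward, where 10.2% and 7.52% of all genes were, so that the downward count is near the background. Hipk2, a kinase known to phosphorylate RUNX1, had 34.8 kb (f/f) and 20.3 kb (KO), a ratio of 0.581. Tle1, a Groucho co-repressor, had 2.04 kb in f/f and was listed at 0 in KO. Of the 19 partner genes with a start in the table, 16 had a start peak in both lists and 1, Tle1, in f/f alone. Over all protein-coding starts, counted per start rather than per gene, the shares were 48.2% and 2.45%. Runx1t1, the fusion partner known as ETO, had no peak in its window in either list.

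Of 20 known RUNX target genes, 13 had more covered bases in KO and 7 fewer, with a median ratio of 1.08 beside 1.04 over all genes. Past 1.5-fold was 1 upward, the cytokine gene Il3 (2.88 kb (f/f) and 5.05 kb (KO), 1.75), and 0 downward, against the same shares of 10.2% and 7.52%. Among 13 targets with a start in the table, 7 had a start peak in both lists, a share near the 48.2% of all starts. The targets were counted per gene and that share per start. The myeloperoxidase gene Mpo had one in f/f alone, and Csf2, which encodes GM-CSF and neighbours Il3, in KO alone. Windows of Il3 and Csf2 overlap, so that they share bases.

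The genes with the nearest pair of covered shares, over these 2 libraries, were Jazf1 and Dok4 for Runx1, Ddx49 and Cope for Runx2, Mtfr1l and Cdc42se1 for Runx3, and Pced1a and Nlgn3 for Cbfb. Mtfr1l had 9.78% in f/f and 11.7% in KO, within 0.0399 points of Runx3 as a distance over both values. The other distances were 0.00401 to 0.0890 points. A likeness over 2 values is a description of these lists.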

How the data were processed

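The authors deposited 1 broad peak list per library. The submitters' processing notes name mm10 and the tools BWA, SAMtools and MACS2. For versions, options and a control library, the sources used here give nothing. Each deposited peak has a position, a score (not used), a fold enrichment (a ratio), a -log10 p and a -log10 q. A library with more reads or better enrichment can give more and wider peaks.

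Peaks outside the assembled chromosomes were left out. Samples were grouped by the genotype in the labels. Overlap needed 1 bp, and interval code was tested on simulated data and against bedtools 2.31.1. Covered bases were counted over each protein-coding gene and 100 kb flanks (Python 3.11.15, pandas 2.3.3). A ratio of 1.5-fold was used as the limit, with no test. Genes, starts and promoter sequences came from RefSeq tables of GRCm38.p6. The starts of some genes, among them Spi1 and Csf1r, were not used. For such neighbours, peaks within 1000 bp of either gene end were set apart. All 44 listed genes were matched, Mcpt6 as Tpsb2. The members and lists were chosen with earlier results of these data known. Named were the 4 genes, all elements in their windows, up to 4 list genes a direction past 1.5-fold and 2 genes of nearest coverage per member. Mpo, Csf2 and Runx1t1 were named after their values were seen. Alternatives were stricter or equal numbers of peaks, other flanks, overlap rules and start windows. Wilson intervals were computed with scipy 1.17.1.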

Additional observations from a re-analysis of the deposited data

How the results depend on the processing

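The differences in covered share of the 4 windows, KO minus f/f in percentage points, depended on the peaks and flanks used, and the cause was not tested. With a -log10 q of 5 or more they were -0.154 for Runx1, 0.597 for Runx2, -0.550 for Runx3 and -0.621 for Cbfb, all opposite in sign to the values reported. With a fold enrichment of 3 or more they were -0.683, 0.0372, 0.0462 and -0.896, opposite in sign for all but Runx3. With the 34272 strongest peaks of each list they were 0.00118 (Runx1), -0.156 (Runx2) and 1.38 (Runx3), and with the strongest 20000, -0.728 (Runx2), 2.78 (Runx3) and -0.621 (Cbfb, opposite in sign). With flanks of 25 kb they were -0.438 for Runx1, opposite in sign, 4.87 for Runx3 and 0.359 for Cbfb, and with 50 kb, 0.262, 3.62 and 0.210. Runx3 was thus higher in KO under every alternative run but the -log10 q limit.

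The peaks found in 1 list alone, 10 in f/f and 11 in KO as reported, numbered 10 and 6 with the -log10 q limit, 9 and 6 among the strongest 20000, 12 and 5 with the fold limit, 12 and 10 with equal numbers of peaks, and 6 and 6 with 25 kb flanks. An overlap of 50%, or joining peaks within 1 kb, gave 10 or 11 in each list. Start windows of 500 and 2000 bp gave the same promoter width ratios. They could not change them, since the full width of the same single peak was used at each start. The promoter widths were not rerun with the -log10 q or fold limits. The Runx2 P1 peaks of both lists and the KO peak at Runx3 P1 are below both limits. The Runx3 gene ratio, an alternative set chosen after seeing the data, was 1.23 to 1.66 in the limits tried.

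No paired analysis was possible because each genotype has 1 library, which also leaves no replicate to leave out. Read depth is unknown, and a peak missing from a list is one that was not called at that depth.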

Other observations

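Each Runx gene lies beside genes of the Clic (chloride intracellular channel) and Rcan (regulator of calcineurin) families, and these neighbours were compared after their values had been seen. Rcan1, 135 kb from Runx1 and outside its window, stood apart from the others. Peaks covered 1.10 kb of the gene in f/f (1.49%, 2 peaks) and 11.7 kb in KO (15.8%, 7 peaks). Its start had a peak in both lists, of 1043 bp (f/f, -log10 p 68.8) and 1096 bp (KO, 42.7). The added bases lay further into the gene, where 5 KO peaks of 757 to 3606 bp, 21.1 to 64.2 kb past the start, had no f/f peak. Of these, 4 were below the median -log10 p of the KO list and 1 above it, with values of 3.15 to 12.6. Over the whole KO list 22.6% of peaks had no f/f peak, 40.9% of those below the median and 4.23% of those above it. With a -log10 q of 5 or more the gene had 0.671 kb in f/f and 5.16 kb in KO, and with a fold enrichment of 3 or more, 0.671 and 1.56 kb. Rcan1 was set against these neighbours only, and no share of all genes with such a difference is given.

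The other neighbours did not share this pattern. Rcan3, near Runx3, had 1.42 kb in f/f and 1.21 kb in KO, and Rcan2, near Runx2, had no peak in either list. Clic6, near Runx1, had 2.31 and 1.26 kb, Clic5, near Runx2, 2.12 and 1.78 kb, and Clic4, near Runx3, 8.45 and 7.24 kb. With 1 library a genotype these values carry no test.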
